A study of Mus musculus with 5 samples.

Results

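In the mouse kidney papilla, 10 genes that mark stem cells or progenitors of the nephron were followed: Prom1, Cd24a, Cd44, Lgr5, Lgr4, Nes, Cited1, Six2, Sox9 and Bmi1. They were taken by name and were read by 20 of the 41174 probes on the array. Of these 20 probes, 15 were bright enough to be tested, and each of the 10 genes had at least 1 tested probe, against 29814 tested probes and 17425 genes in all. The cells came from H2B-GFP mice aged 2 to 3 months that had received doxycycline before birth and were then chased. All samples were labelled as control kidney papilla. H2B-GFP is a histone fused to green fluorescent protein, and the label is diluted at each division, so that it is kept longest by cells that rarely divide. Dispersed live papilla cells were sorted into label-retaining GFP+ cells and GFP- cells, and both populations carried the same transgene and the same pulse. The promoter that drives the transgene and the numbers of animals and of sorted cells behind a sample were not known here.

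Each of 5 biological replicates gave 1 array, hybridised with GFP+ material in Cy5 and GFP- material in Cy3, per the labels, which name no dye swap. The deposited tables hold 2 intensities per probe, without saying which dye each stands for. The second was taken as GFP+, so that the log2 ratio of the second over the first is GFP+ over GFP-. This direction is likely rather than stated: GFP+ was the Cy5 sample, per the labels, and Agilent ratios are usually Cy5 over Cy3. The sample descriptions name GFP- before GFP+ for all 5 arrays. The array names of replicates 3 to 5 give the same order, while those of replicates 1 and 2 hold only numbers. Every sign on an array turns if the opposite holds there. A probe counted as above background at 3 or more times the negative control probe of its channel. Testing required this in either channel on 3 or more of the 5 arrays. In sorted bulk material, fewer cells of a type and less RNA per cell cannot be told apart.

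Some of these genes are known from growing organs and others from stem or progenitor-like cells. In the mouse embryo, nephrons arise from a cap of mesenchyme whose cells express Six2 and Cited1 and are used up around birth, while Sox9 acts in the branching ureteric bud from which the collecting ducts form. Lgr4 and Lgr5 are receptors for R-spondins, secreted proteins that raise Wnt signalling, and Lgr5 marks stem cells of the mouse intestine. Prominin-1 (CD133, Prom1) and CD24 have been used together to sort progenitor-like tubule cells from human kidney.

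The arrays carried little in common, and replicate 1 stood apart from the rest. Across the tested probes, which are not independent replicates, the log2 ratios of replicate 1 correlated with those of the other arrays at Pearson's r between -0.193 and -0.0656, and those of replicates 2 to 5 with each other at 0.0619 to 0.233. The share of probes above background was 68.8% for GFP+ and 75.3% for GFP- cells of replicate 1; on the other arrays it was 59.4% to 72.5% in GFP+ and 57.7% to 59.9% in GFP-. The labelled direction of replicate 1 was kept. The median log2 ratio of an array lay between -0.25 (replicate 1) and 0.41 (replicate 5). Means without replicate 1 are given beside those over all arrays. Collecting duct identity was read from Aqp2, the water channel of principal cells, which was above background in both channels on all 5 arrays.

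No marker was called higher or lower in GFP+ than in GFP- cells. By limma on the log2 ratios of the 5 arrays, with Benjamini-Hochberg adjustment over all tested probes, 0 of 10 genes and 0 of 15 probes were called, with adjusted p between 0.812 and 0.997. Over all genes 0% were called, so the count for the markers equals the background. At an unadjusted p under 0.05 there was 1 of 10 markers, Cited1, against 5.87% of all genes and 1.59% with a mean below 0; over probes it was 1 of 15, against 6.01%. Without replicate 1 there were 2, Prom1 (limma unadjusted p 0.0141) and Cited1 (0.0248), against 14.7% of all genes, and again 0 after adjustment. The markers had a median mean log2 ratio of -0.02, beside 0.08 over all genes, with 5 means above 0 and 5 below. A mean of 2-fold or more in either direction was found for 3 of 10, Prom1, Lgr4 and Cited1, against 30.3% of all genes. What set the markers apart from one another was how steady their ratios were. The ratios of Cd24a, Nes, Cited1 and Cd44 varied less between arrays than those of most tested probes. Those of Prom1 and Lgr4 swung widely in both directions.

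**Figure D1:**
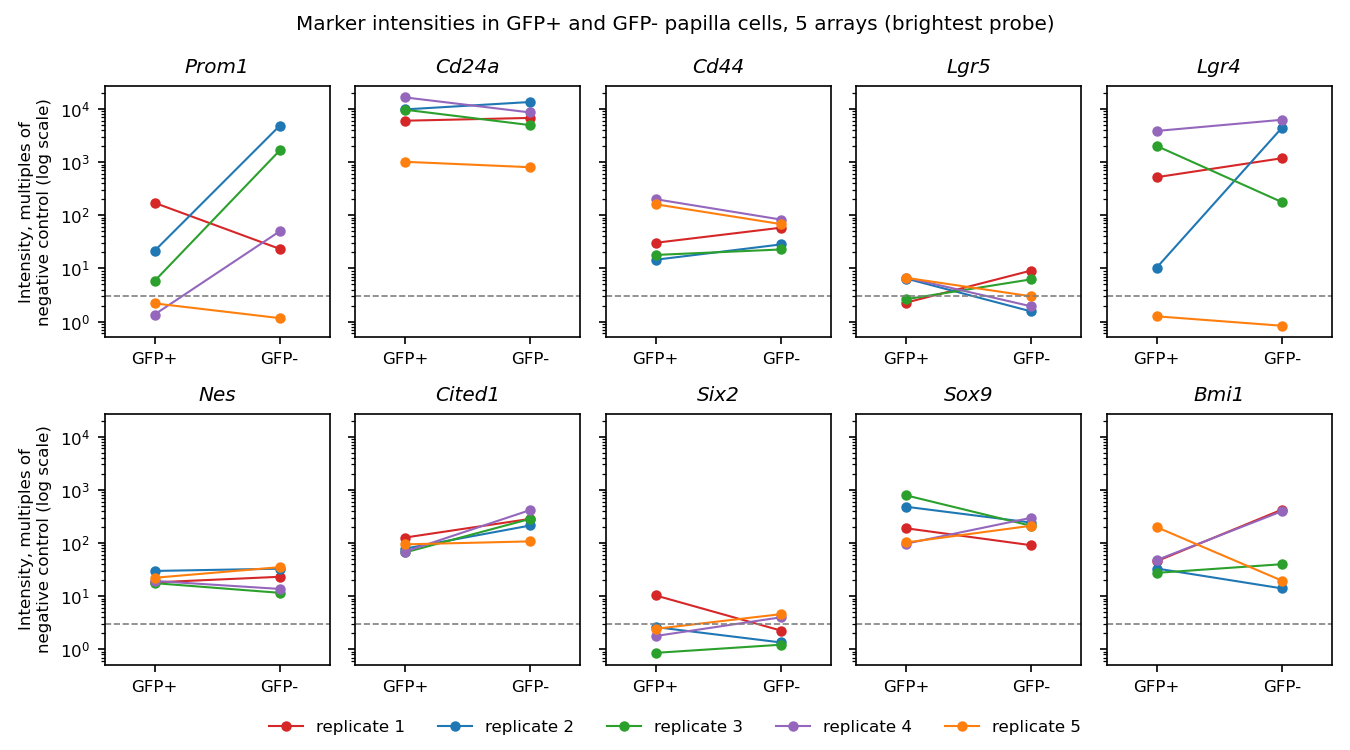
Intensity of the brightest probe of each gene in GFP+ (left) and GFP- cells (right), as multiples of the negative control on a log scale; each line joins both channels of 1 array and the dashed line marks the background limit of 3 times the control. The lines of Cited1 all run upward from GFP+ to GFP-, those of Nes and Cd24a are nearly level, and those of Prom1 and Lgr4 cross over a wide range.

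Cited1 was the only marker whose ratio had 1 sign on all 5 arrays. Cited1 encodes a transcriptional coactivator that marks the least committed cells of the cap mesenchyme in the mouse embryo. Its probe (A_51_P255365) gave intensities of 3032, 2011, 3276, 1572 and 2611 in GFP+ cells on replicates 1 to 5, against 5043, 5960, 13967, 11000 and 3741 in GFP- cells. The highest GFP+ value lay below the lowest GFP- value. Among all genes 0.614% had intensities without overlap between the populations, and Cited1 was 1 such gene among the 10 markers. Expressed as multiples of the negative control the populations did overlap, with 66.5 to 127 times in GFP+ and 107 to 417 times in GFP- cells, so 0 of 10 markers were free of overlap on that scale, against 0.74% of all genes.

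The log2 ratios of Cited1 were -0.73, -1.57, -2.09, -2.81 and -0.52 on replicates 1 to 5. All of them lay below 0, and those of replicates 1 and 5 were the smallest in size. Of all genes with 5 values, 8.01% had 1 sign on all 5 arrays and 3.17% lay below 0 on all 5. On replicates 2 to 5 alone, Cited1 was again the 1 marker with a single sign, against 26.3% of all genes. The mean was -1.54 ± 0.95 (SD, n = 5), with a 95% interval of -2.93 to -0.16, and p in limma was 0.0330 before and 0.812 after adjustment. Without replicate 1 the mean was -1.75 ± 0.96 (SD, n = 4; limma adjusted p 0.278). With replicate 2, 3 or 4 left out, the unadjusted limma p was 0.0718, 0.0943 and 0.114, no longer under 0.05. With the sign of replicate 1 turned, Cited1 no longer had 1 sign and had a mean of -1.25 (limma unadjusted p 0.0859). Cited1 is read by 1 probe, so no further probe bears on its value.

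Six2, the homeobox factor that keeps nephron progenitors of the mouse embryo self-renewing, was close to background throughout. Its only probe (A_51_P354224) had intensities of 247, 67.2, 42.4, 40.8 and 67.4 in GFP+ cells on replicates 1 to 5, against 40.0, 37.7, 59.9, 106 and 160 in GFP- cells. The probe was above background in GFP+ cells only on replicate 1, where it reached 10.3 times the negative control, and in GFP- cells only on replicates 4 and 5, at 4.00 and 4.59 times. No array had Six2 above background in both populations. Its log2 ratios ran 2.63, 0.83, -0.50, -1.37 and -1.25, with a mean of 0.07 ± 1.68 (SD, n = 5; limma adjusted p 0.986). Without replicate 1 the mean was -0.57 ± 1.01 (SD, n = 4; limma adjusted p 0.651).

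Genes that act beside Cited1 and Six2 showed no call either. Of 14 regulators of nephron progenitors, 12 were tested and limma called 0, with 0 at an unadjusted p under 0.05, 7 means above 0 and a median of 0.29. The members of lowest unadjusted p were Hoxa11, a patterning gene of the metanephric mesenchyme, at 0.89 ± 0.77 (above background on 2 arrays in GFP+ and 1 in GFP- cells), and Eya1, a partner of Six2, at 1.19 ± 1.84 (SD, n = 5). Of 11 genes of nephron commitment, all were tested and limma called 0, with 1 at an unadjusted p under 0.05 (5.87% over all genes) and a median of -0.04. That gene was the cyclin gene Ccnd1, at -3.85 ± 4.82 (SD, n = 5; limma adjusted p 0.812), with ratios of -8.69, -6.10 and -7.08 on replicates 2 to 4 and 1.90 and 0.71 on replicates 1 and 5. Wnt4, the signal that drives the mesenchyme into nephrons, had -0.91 ± 0.51 (SD, n = 5; limma adjusted p 0.812) and lay below 0 on all 5 arrays, as did 3.17% of all genes with 5 values.

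Prom1 differed widely between GFP+ and GFP- cells on single arrays, but not in 1 direction. Prominin-1 is a glycoprotein of membrane protrusions. Its brightest probe (A_51_P414072) gave intensities of 4102, 548, 285, 31.1 and 61.0 in GFP+ cells on replicates 1 to 5, against 413, 134636, 81107, 1316 and 40.5 in GFP- cells. GFP- cells were far brighter on replicates 2, 3 and 4, GFP+ cells were brighter on replicate 1, and replicate 5 was below background in both. The log2 ratios were 3.31, -7.94, -8.15, -5.40 and 0.59. On replicate 4 GFP+ was not above background, at 1.36 times the negative control, so that ratio gives only a least size, and it enters the mean as measured. On replicate 3, 0.514% of tested probes had a ratio as low or lower, and on replicate 2, 1.95%.

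The other Prom1 probe (A_52_P402786) gave the same order on replicates 2 and 3 and not on replicate 4. It had 4343, 107, 490, 43.1 and 104 in GFP+ cells, against 2361, 100083, 310871, 28.3 and 52.9 in GFP- cells. On replicate 4 it was below background in both channels, where the brighter probe had reached 49.9 times the negative control in GFP- cells. Both probes were above background on 3 arrays and had the same sign on all 3. The mean ratios were -3.52 ± 5.20 for the brighter and -3.34 ± 5.71 for the other probe (SD, n = 5), each with a limma adjusted p of 0.812. Without replicate 1 the brighter probe had -5.23 ± 4.07 (SD, n = 4; limma adjusted p 0.254). Its spread over the 5 arrays was larger than that of 97.2% of tested probes of similar brightness.

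Cd24a was bright and close to equal in both populations. Cd24a encodes a small surface glycoprotein with a lipid anchor, found on many epithelial and blood cells. Its probe (A_52_P244193) gave 143544, 251059, 475863, 376043 and 28036 in GFP+ cells on replicates 1 to 5, against 119938, 376630, 242965, 226054 and 27911 in GFP- cells. Both channels were lowest on replicate 5, and neither population was higher throughout. The log2 ratios ran from -0.59 on replicate 2 to 0.97 on replicate 3, with a mean of 0.28 ± 0.61 (SD, n = 5; limma adjusted p 0.922) and, without replicate 1, 0.28 ± 0.71 (SD, n = 4). The 95% interval of -0.99 to 1.55 corresponds to a ratio between 0.502 and 2.92. No saturation flag was available for such bright spots.

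Cd44, the receptor for hyaluronan, was seen by 1 of its 3 probes. The probe A_51_P407053 gave 726, 374, 883, 4581 and 4454 in GFP+ cells on replicates 1 to 5, against 1033, 789, 1115, 2190 and 2378 in GFP- cells. GFP+ cells were lower on replicates 1 to 3 and higher on replicates 4 and 5, where both channels were also at their brightest. Log2 ratios of -0.51, -1.08, -0.34, 1.06 and 0.91 gave a mean of 0.01 ± 0.93 (SD, n = 5; limma adjusted p 0.997). Without replicate 1 the mean was 0.14 ± 1.03 (SD, n = 4). The other probes, A_52_P229536 and A_52_P523459, were below background in both channels on every array, at most 1.74 times the negative control. The array design names the same transcript for all 3 probes.

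Around Cd44 and the surface markers, 0 genes were called. Of 14 genes of hyaluronan and Cd44 partners, 12 were tested, with 0 at an unadjusted p under 0.05 and a median of 0.03. Has1, a hyaluronan synthase, had 1.79 on replicate 1 but -2.36 to -1.47 elsewhere, with a mean of -1.20 ± 1.71 (SD, n = 5) and, without replicate 1, -1.94 ± 0.42 (SD, n = 4; limma adjusted p 0.246). Msn, which links Cd44 to actin, had -8.20 on replicate 3 but -0.75 to 0.08 elsewhere, and averaged -1.97 ± 3.50 (SD, n = 5). Of 3 tested Msn probes, 2 had a mean of that sign. Of 13 other surface markers of stem cells, all were tested, with 10 means above 0, 2 at an unadjusted p under 0.05 (5.87% over all genes) and a median of 0.25. They were the integrin gene Itga6, at 1.90 ± 1.39, and Prom2, a relative of Prom1, at 1.56 ± 1.06 (SD, n = 5; limma adjusted p 0.812 each). Both lay above 0 on all 5 arrays, while 8.01% of all genes with 5 values had 1 sign on all 5. For Prom2 both tested probes had a mean above 0, and for Itga6 1 of 2.

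**Figure D2:**
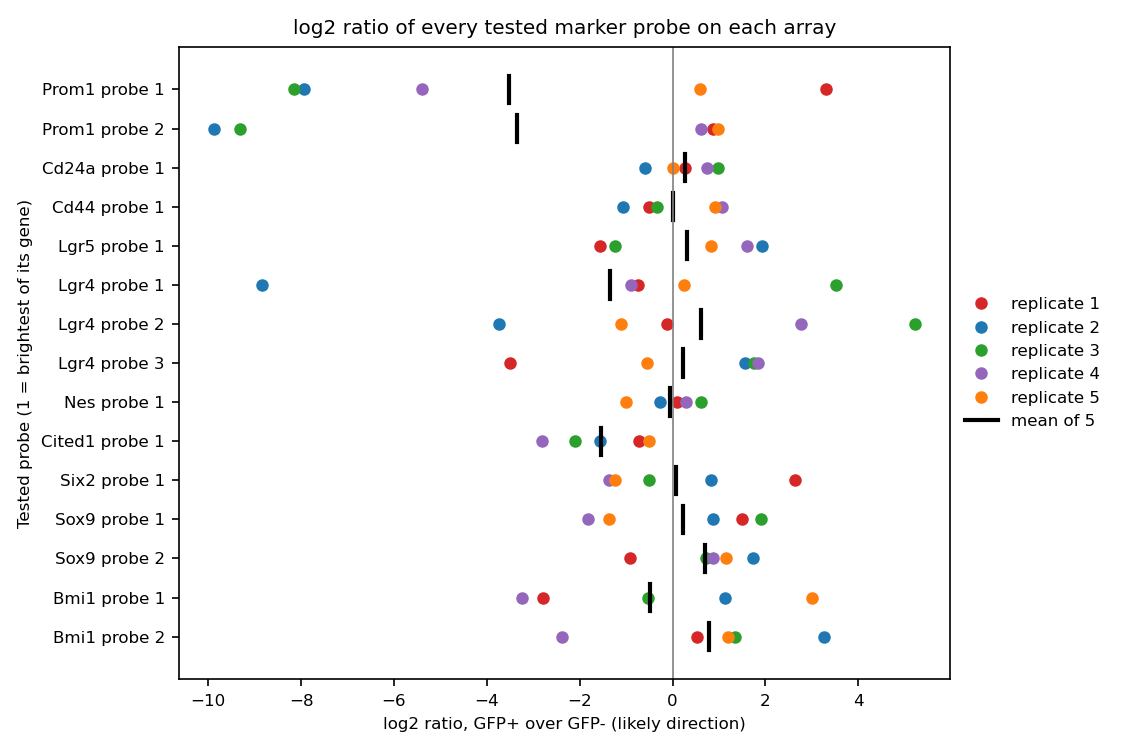
Log2 ratio of GFP+ over GFP- for each of the 15 tested probes; points are arrays, coloured by replicate, and the bar is the mean of 5. All points of Cited1 lie between -2.81 and -0.52, while the points of both Prom1 probes reach from below -8 on replicate 3 to above 0 on replicate 1.

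Lgr5 was dim and was above background in both populations at once on 0 of 5 arrays. Its brighter probe (A_51_P218091) gave 54.6, 165, 130, 154 and 184 in GFP+ cells on replicates 1 to 5, against 162, 43.3, 307, 51.0 and 104 in GFP- cells. It was above background in GFP+ cells on replicates 2, 4 and 5, and in GFP- cells on replicates 1 and 3. The limit here divided dim values, so this does not show presence in 1 population and absence in the other. In GFP+ cells the probe had 2.28 and 2.64 times the negative control on replicates 1 and 3. Its highest values were 6.72 times in GFP+ and 9.14 times in GFP- cells. Ratios (log2) of -1.57, 1.93, -1.24, 1.59 and 0.82 gave a mean of 0.31 ± 1.62 (SD, n = 5; limma adjusted p 0.935) and, without replicate 1, 0.78 ± 1.42 (SD, n = 4; limma adjusted p 0.592). With an offset of 50 and loess normalization the mean was -0.058. On replicate 5 the GFP- value was 2.99 times the negative control, just under the limit of 3. The other Lgr5 probe (A_52_P30169) stayed at or below the negative control in both channels on all 5 arrays.

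Lgr4, the relative of Lgr5 that many epithelia express, was bright on most arrays and varied widely. Its brightest probe (A_52_P276727) gave 12441, 267, 98892, 88107 and 34.8 in GFP+ cells on replicates 1 to 5, against 20937, 123478, 8671, 164566 and 29.1 in GFP- cells. GFP+ cells were far lower on replicate 2, higher on replicate 3, and lower by 1.68-fold and 1.87-fold on replicates 1 and 4. Replicate 5 was below background in both populations. The log2 ratios were -0.75, -8.85, 3.51, -0.90 and 0.26, and 1.12% of tested probes on replicate 2 had a ratio as low or lower. The mean was -1.35 ± 4.56 (SD, n = 5; limma adjusted p 0.868). It rested on replicate 2: without that array it was 0.53, and without replicate 1 it was -1.50 ± 5.25 (SD, n = 4).

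The 3 other Lgr4 probes gave other means. The probe A_51_P442746 was above background in both channels on all 5 arrays. It had log2 ratios of -0.13, -3.73, 5.22, 2.77 and -1.11, with a mean of 0.60 ± 3.47 (SD, n = 5; limma adjusted p 0.925). It shared the direction of the brightest probe on replicates 1, 2 and 3, and on replicate 5 it was 18.9 times the negative control in GFP+ and 32.5 times in GFP- cells, where the brightest probe was below background. The probe A_52_P278566 had -3.49, 1.57, 1.74, 1.85 and -0.54, with a mean of 0.22 ± 2.30 (SD, n = 5; limma adjusted p 0.963), and, without replicate 1, 1.15 ± 1.14 (SD, n = 4). It was above background in GFP+ cells on 4 arrays and in GFP- cells on 3. On replicate 4 both this probe and A_51_P442746 lay above 0, where the brightest probe lay below. The probe A_52_P633844 was above background only in GFP- cells of replicate 1 and was not tested. The array design describes its target as a neonatal kidney clone of unclassifiable product, and names 1 common transcript for the brightest probe and A_51_P442746.

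Other genes of the R-spondin pathway gave no call. Of 15 genes, 13 were tested, with 6 means above 0, 1 at an unadjusted p under 0.05 (5.87% over all genes) and a median of -0.05. Znrf3, the membrane ubiquitin ligase that R-spondins and Lgr receptors clear from the surface, had 1.78 ± 1.06 (SD, n = 5; limma adjusted p 0.812) and lay above 0 on all 5 arrays, but was above background on only 3 arrays in GFP+ and 2 in GFP- cells. Ascl2, a target of Wnt signalling that acts with Lgr5 in intestinal stem cells of the mouse, had -1.17 ± 0.79 (SD, n = 5; limma adjusted p 0.812) and lay below 0 on all 5. Of all genes with 5 values, 8.01% had 1 sign on all 5 arrays and 3.17% lay below 0 on all 5. Axin2, another Wnt target, did not pass the filter on dim probes.

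Nes, the intermediate filament gene of neural stem cells, was among the steadiest genes on the array. Its probe (A_51_P452323) gave 435, 765, 867, 442 and 615 in GFP+ cells on replicates 1 to 5, against 410, 918, 567, 361 and 1225 in GFP- cells. The ranges overlapped almost wholly, and the GFP+ values differed by at most 1.99-fold between arrays. Log2 ratios ran 0.08, -0.26, 0.61, 0.29 and -0.99, with a mean of -0.05 ± 0.61 (SD, n = 5; limma adjusted p 0.985) and a 95% interval of -1.33 to 1.22. Without replicate 1 it was -0.09 ± 0.70 (SD, n = 4). Of all tested probes, 4.79% had as small a spread over arrays or a smaller one, and 5.94% of those of similar brightness. Of 10 genes of intermediate filaments and neural stem cells, 9 were tested, with 3 means above 0, 0 at an unadjusted p under 0.05 and a median of -0.27. Vim, the filament partner of nestin, had -2.46 ± 2.98, and Msi2, an RNA-binding protein of stem cells, had 1.55 ± 1.95 (SD, n = 5). Of 4 tested Msi2 probes, 2 had a mean of that sign.

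Sox9 was well above background in both populations and went both ways. Sox9 encodes a transcription factor that also appears in tubule cells during repair. Its brightest probe (A_51_P451606) gave 4526, 12314, 38761, 2224 and 2835 in GFP+ cells on replicates 1 to 5, against 1607, 6761, 10298, 7874 and 7373 in GFP- cells. GFP+ cells were higher on replicates 1 to 3 and lower on replicates 4 and 5. For this probe log2 ratios were 1.49, 0.86, 1.91, -1.82 and -1.38, with a mean of 0.21 ± 1.71 (SD, n = 5; limma adjusted p 0.958). Without replicate 1 the mean was -0.11 ± 1.79 (SD, n = 4).

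A dimmer Sox9 probe read differently from the bright one. The probe A_52_P577484 was above background in GFP+ cells on replicates 2, 3 and 5, at 5.25, 3.28 and 4.49 times the negative control, and was not above background in GFP- cells on any array. Its log2 ratios were -0.92, 1.72, 0.72, 0.87 and 1.15, with a mean of 0.71 ± 0.99 (SD, n = 5; limma adjusted p 0.833). With GFP- raised to the lowest value above background on each array, the mean ratio of GFP+ over GFP- was 0.892. The dimmer probe passed the filter through GFP+ cells alone, so its mean and its test do not show a direction. It shared the sign of the bright probe on replicates 2 and 3 and had the opposite sign on replicates 1, 4 and 5. On replicates 1 and 4 the dimmer probe was below background in both channels. The remaining probe (A_52_P214630) was below background in both channels on every array. Of 12 genes of the Sox9 family and of tubule injury, 11 were tested, with 0 at an unadjusted p under 0.05 and a median of 0.13; Sox11 had -1.37 ± 1.31, with 1 of 3 tested probes below 0, and Sox8 had -1.44 ± 2.16 (SD, n = 5).

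Bmi1 was above background in both populations by its brighter probe and had no steady direction. Bmi1 is a subunit of the Polycomb repressive complex that puts ubiquitin on histone H2A, and it holds down the cell cycle inhibitor gene Cdkn2a. Its brighter probe (A_51_P121547) gave 1089, 849, 1354, 1093 and 5491 in GFP+ cells on replicates 1 to 5, against 7524, 391, 1959, 10433 and 682 in GFP- cells. GFP+ cells were lower on replicates 1, 3 and 4 and higher on replicates 2 and 5. The log2 ratios were -2.79, 1.12, -0.53, -3.25 and 3.01, with a mean of -0.49 ± 2.63 (SD, n = 5; limma adjusted p 0.924) and, without replicate 1, 0.08 ± 2.66 (SD, n = 4). The dimmer probe (A_52_P39157) was above background on 3 arrays in each channel, and on replicate 3 in neither. Its log2 ratios were 0.53, 3.26, 1.34, -2.39 and 1.20. They had a mean of 0.79 ± 2.05 (SD, n = 5; limma adjusted p 0.854) and shared the sign of the brighter probe on 3 of 5 arrays.

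Among 18 Polycomb genes, 17 were tested and limma called 0, with 3 at an unadjusted p under 0.05 (5.87% over all genes), 9 means above 0 and a median of 0.16. The 3 lay below 0 on all 5 arrays. Pcgf2, a close relative of Bmi1, had -4.97 ± 3.66, from -10.55 on replicate 4 to -0.94 on replicate 2 (limma adjusted p 0.812). Eed, a core subunit of the complex that methylates histone H3, had -2.08 ± 0.83 (SD, n = 5; limma adjusted p 0.812), with 2 of its 3 tested probes below 0. Suz12, of the same complex, had -1.34 ± 0.83 (SD, n = 5; limma adjusted p 0.812) and was above background on 2 arrays in GFP+ and 4 in GFP- cells; it was named after its values were seen. Cdkn2a did not pass the filter on dim probes. Over the 8 pathway lists, 97 of 106 distinct genes were tested, of which 7.22% had an unadjusted p under 0.05, beside 5.87% of all genes, and 10.3% had 1 sign on all 5 arrays, beside 8.01% of all genes.

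**Figure D3:**
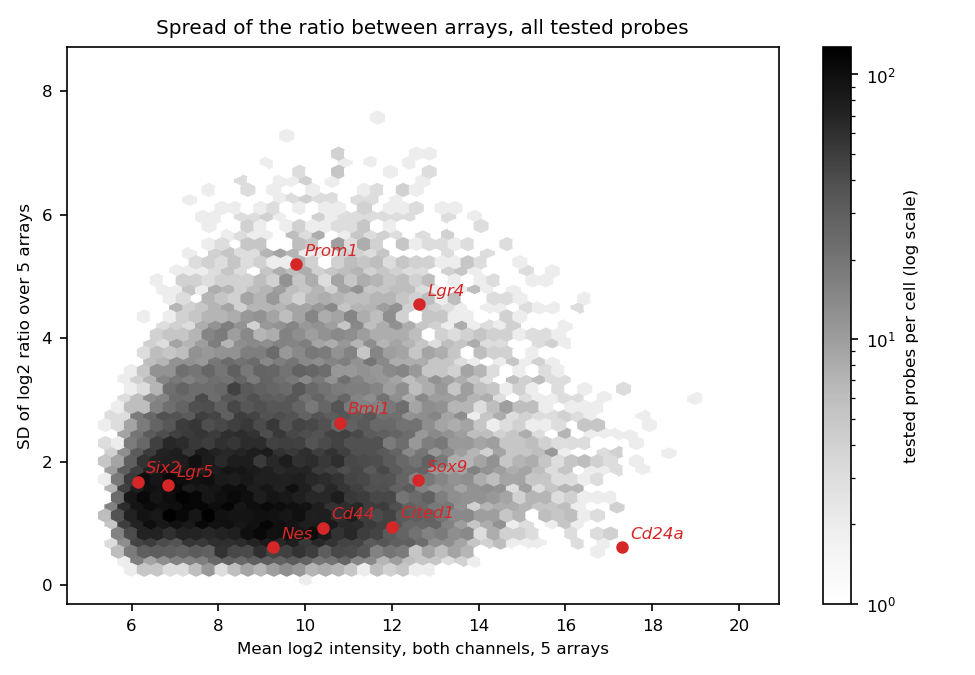
Standard deviation of the log2 ratio over the 5 arrays against mean log2 intensity; grey cells count all 29814 tested probes and red points are the brightest probes of the 10 genes. Nes and Cd24a lie at the lower edge of the cloud and Prom1 and Lgr4 near its upper edge.

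The markers were as variable as other genes in the median but reached both ends of the range. The median SD of the log2 ratio was 1.65 for the 10 markers and 1.67 for all genes. Cd24a and Nes lay at the 4.77 and 4.79 percentiles of tested probes, Cd44 at 15.8 and Cited1 at 16.4, while Prom1 lay at 98.1 and Lgr4 at 96.2. Of 50 ratios of the brightest probes, 5 reached 10-fold in either direction (10%), beside 11.8% over all genes; for Prom1 on replicate 4 the dimmer channel was not above background. Ratios of 100-fold or more were found 3 times (6%), all from Prom1 and Lgr4 on replicates 2 and 3, beside 1.98% over all genes. On any 1 array between 4 and 6 of the 10 markers had a ratio above 0. At least 7 of the 10 were above background in each channel of every array. Their probes had already passed the filter on dim probes, so a high count was in part built in.

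**Figure D4:**
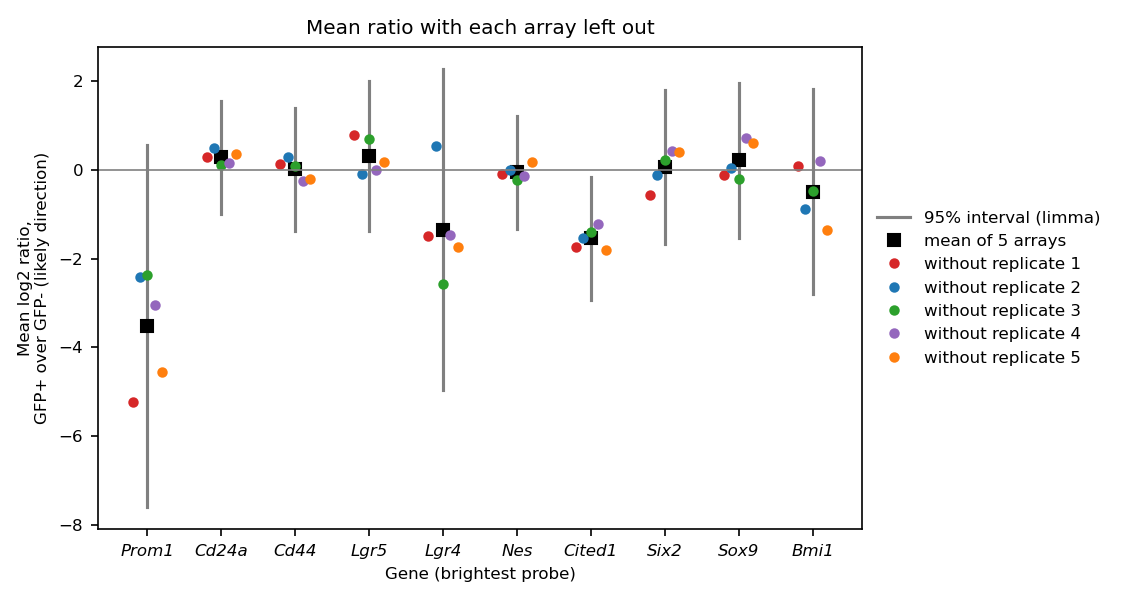
Mean log2 ratio of the brightest probe of each gene over 5 arrays (squares) with its 95% interval from limma (grey bars), and the mean with each array left out (coloured points). Only for Cited1 does the interval, unadjusted for the number of probes, lie wholly below 0, and its means with 1 array left out stay between -1.80 and -1.23.

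Likeness of ratio pattern between a marker and another gene was the root mean square difference of the log2 ratios over the 5 arrays, computed against 16275 genes that had a value on every array, with clone and predicted names left out. The nearest gene to Cited1 was Bpifb4, at 0.38, and to Sox9 it was Inka1, at 0.39. Prom1 was nearest to Atp5pb at 1.01, Lgr4 to Lysmd3 at 0.71 and Bmi1 to Wnt10b at 0.59. For Cd24a, Nes, Lgr5, Cd44 and Six2 the nearest were Vegfd (0.14), Saa4 (0.18), Pias2 (0.19), Hira (0.19) and Il13ra2 (0.30). Within a difference of 0.5 there were 119 genes for Nes, 64 each for Cd24a and Cd44, 41 for Lgr5, 8 for Six2, 2 each for Cited1 and Sox9 and 0 for Prom1, Lgr4 and Bmi1, so for the first 4 of these the nearest gene is 1 of many.

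Markers of other cell types that the sorted populations could hold were read beside these values. Cd24a and Cd44 are also expressed by leukocytes, and Nes by endothelial cells and pericytes. Of 10 leukocyte markers, 8 were tested, with 1 mean above 0 and list medians of 0.01, 0.17, -0.40, -0.83 and -0.93 on replicates 1 to 5. Their summed intensity was 7465 to 14727 in GFP+ cells and 13232 to 128594 in GFP- cells, and S100a8 was below the filter. Of 7 endothelial markers, 4 were tested, with 0 means above 0 and list medians of 0.54, -0.25, -0.76, -1.54 and -1.05. Their summed intensity was 2884 to 5803 in GFP+ cells and 3562 to 58488 in GFP- cells, and Kdr, Tek and Tie1 were below the filter. Of 7 pericyte and smooth muscle markers, 6 were tested, with 3 means above 0 and a median of -0.09. Among the brightest markers of such lists, Vwf of endothelium had -1.26 ± 1.93, Acta2 of smooth muscle 0.36 ± 4.37 and Col1a2 of fibroblasts -0.92 ± 1.31 (SD, n = 5). A mean of the same sign was found for 2 of 3 tested Vwf probes and 2 of 4 tested Acta2 probes. The part of these cells in the values of Cd24a, Cd44 and Nes was not tested.

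The median ratios of principal cell and thin limb markers had the opposite sign on replicate 1 from the other arrays. The principal cell list, with 7 of 7 markers tested and 6 means above 0, had medians of -3.13, 4.70, 2.69, 1.27 and 0.63 on replicates 1 to 5. The thin limb list, also with 7 of 7 tested and 6 means above 0, had -2.01, 1.83, 1.53, 3.41 and 2.33. Among the brightest markers of epithelial lists, Aqp2 had 0.43 ± 3.99, Cryab of the thin limb 1.36 ± 1.64, Slc5a2 of the proximal tubule 0.33 ± 3.66 and Krt7 of the papillary surface and urothelium -1.76 ± 0.32 (SD, n = 5), the last with 1 of 2 tested probes below 0. Cryab also had 2 tested probes, of which 1 had a mean above 0. Slc4a1, on both the intercalated cell and the erythroid list, had 2.57 ± 5.07 (SD, n = 5), and 4.75 ± 1.60 without replicate 1 (SD, n = 4). Limma called 0 markers in these and in the 8 other cell type lists. Summed intensities overlapped, at 52815 to 670649 in GFP+ and 20522 to 650828 in GFP- cells for principal cell markers. By their brightest probes, Prom1, Sox9, Six2, Cd24a and Nes lay above 0 on replicate 1, and Cited1, Bmi1, Lgr5, Lgr4 and Cd44 below 0. No marker had a sign on replicate 1 that was opposite on all other arrays. Sox9 lay above 0 on replicates 2 and 3 too, Six2 on replicate 2 and Prom1 on replicate 5, and Bmi1 lay below 0 on replicates 3 and 4. The part of tubule cell content in the marker ratios was not tested.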

How the data were processed

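The data were 5 2-colour Agilent arrays, each pairing GFP+ and GFP- papilla cells of 1 biological replicate. RNA was amplified as cDNA by global PCR (SuperAmp) before labelling, per the labels; such amplification can change relative transcript amounts, above all from few cells. The deposited values are linear intensities, per the file headers, made with Agilent Feature Extraction, per the submitters' processing notes; the sources used here give no version and no background or dye steps. The deposited log10 ratio equalled that of the second over the first intensity within 0.001 for 78.3% to 89.1% of probes of an array, and served as an alternative.

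The log2 ratio was computed from the deposited intensities with no offset, leaving out control probes and, per array, the 14 to 41 probes the software had marked. Probes were named through the platform annotation (32662 with 1 symbol, 45 with several) or a RefSeq accession (817); 7650 stayed unnamed. All 20 marker probes carried the symbol in the file as well. The brightest tested probe (highest mean log2 intensity) stood for a gene, with the others given beside it. The mean log2 ratio was set against 0 by limma (version 3.58.1; R version 4.3.3; lmFit and eBayes, two-sided, Benjamini-Hochberg over 29814 probes, threshold 0.05); the array is the block, and SD is the spread over arrays. The fit was also run on simulated ratios, whose outcome is not reported here and is not used to read the 0 calls. Similar brightness means the same decile of tested probes by mean log2 intensity. The number of arrays limits the precision.

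The markers and gene lists were chosen with earlier results of these data known. Named genes were all 10 markers with every probe, the 2 of lowest unadjusted p in each pathway list, the nearest gene in ratio pattern, and the brightest marker of each cell type list, of which 1 is not reported here. Other offsets, loess, centring, filters, probe summaries, array weights, each array left out and a turned sign of replicate 1 were tried.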

Additional observations from a re-analysis of the deposited data

Results flagged for a closer look

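In 53 groups of 5 array values, 4 held a value far from the other 4 by Dixon's ratio; about 1 group in 20 would hold one by chance. None of the 15 tested marker probes was among them. Replicate 1 had 75.3% of probes above background in the GFP- channel, against 57.7% to 59.9% on the other arrays. Has1, the hyaluronan synthase gene, had a log2 ratio of 1.79 on replicate 1, against -2.36 to -1.47. Msn, the moesin gene, had -8.20 on replicate 3, against -0.75 to 0.08. The erythroid list had a median of 2.27 on replicate 5, against 0.54 to 0.94.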

How the results depend on the processing

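Under 18 alternatives limma called 0 probes in all and 0 of the markers and pathway genes with a value, and likewise 0 marker probes, for which averaging over probes was not run. The filter on both channels left 8 markers, 11 marker probes and 82 pathway genes. The lowest adjusted p of a marker was 0.152, with the sign of replicate 1 turned. At an unadjusted p under 0.05 there were 1793 probes, against 4659 without replicate 1, 1179 without replicate 5, 5418 with the sign of replicate 1 turned and 3751 with array weights. Of 178 marker values under alternatives, 155 kept their sign and side of the threshold; those of Cited1, Prom1 and Cd24a always did. Cited1 lay between -1.80 and -1.23 and Prom1 between -5.23 and -2.36 with 1 array left out. The other 23 changed sign, none past the threshold, and the cause was not tested. With an offset of 50 and loess, Lgr5 had -0.058, Six2 -0.10 and Cd44 -0.037; with centred arrays Six2 had -0.11 and Cd44 -0.17; with array weights Sox9 had -0.13 and Six2 -0.43; with replicate 1 turned Sox9 had -0.38, Six2 -0.98 and Bmi1 0.63, while Cited1 had -1.25 (limma unadjusted p 0.0859) and Prom1 -4.84 (0.00706); with all probes averaged Bmi1 had 0.15. With 1 array left out the means lay at -0.22 to 0.18 for Nes, -0.21 to 0.72 for Sox9, -0.10 to 0.78 for Lgr5, -2.56 to 0.53 for Lgr4, -0.57 to 0.43 for Six2, -1.36 to 0.20 for Bmi1 and -0.25 to 0.28 for Cd44. The log2 ratio within each array is itself the paired comparison of both populations, so no further block was fitted. Alternatives for marker probes and pathway lists were chosen after seeing the data. Six2 and Lgr5 had no value under the filter on both channels. Low signal over background limits Six2, Lgr5 and the dim Sox9 probe.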
